A study of Rattus norvegicus with 14 samples.

Results

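The receptors described here are 9 of the 19357 genes measured on the arrays, taken by gene name: Esr1, Esr2, Pgr, Gper1, Nr3c1, Nr3c2, Rxfp1, Prlr and Oxtr. RNA from the whole abdominal aorta of Wistar outbred female rats was hybridised to 14 arrays, 1 per animal, in 3 groups. ExpPE (experimental preeclampsia, n = 5) were pregnant rats given lipopolysaccharide (LPS, a bacterial wall component) at 1 μg/kg in 2 ml saline over 1 h, 14 days after a jugular vein cannula was placed at the start of pregnancy, and killed at day 20 of pregnancy. Pr (n = 5) were pregnant rats given 2 ml saline over 1 h on the same schedule. NPr (n = 4) were age matched non-pregnant females with a cannula and a saline infusion, killed in diestrus, so that the non-pregnant values come from 1 stage of the cycle. The age in weeks was not given in the sources used here, and no array was made of non-pregnant rats given LPS.

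Pregnancy changes blood vessels partly through hormones, and a vessel can answer only to a hormone whose receptor it makes. Esr1 and Esr2 encode oestrogen receptors alpha and beta, Pgr the progesterone receptor, Nr3c1 the glucocorticoid receptor and Nr3c2 the mineralocorticoid receptor, all of which bind their hormone inside the cell and act on genes as transcription factors. Gper1, a membrane receptor that responds to oestrogen, Rxfp1, the receptor of relaxin, and Oxtr, the oxytocin receptor, signal through G proteins, while Prlr, the prolactin receptor, signals through the kinase Jak2 and STAT factors. In arteries, oestrogen and relaxin are known for promoting vasodilation, and the mineralocorticoid receptor of smooth muscle for a part in blood pressure.

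A second deposited table held the same intensities (largest log2 gap 7.2e-10) but gave the arrays named ExpPE here the titles of Pr rats and the arrays named Pr here the titles of ExpPE rats. The titles of the NPr arrays were alike in both. The column names of the annotated table, which state the infusion, were followed. With those titles in place of the column names, ExpPE minus Pr has the opposite sign for every gene. The differences of ExpPE and of Pr from NPr then exchange places. The comparison of all 10 pregnant rats with NPr rats stays as it is. The array medians were close, from 5.61 to 5.67 log2 intensity in ExpPE, 5.59 to 5.64 in Pr and 5.58 to 5.63 in NPr. Values were read against a background level of 3.91 log2 intensity, the 95th percentile of 1191 olfactory, vomeronasal, taste and trace amine receptor genes. Of the tissue markers, 10 of 10 smooth muscle and 10 of 10 endothelial markers averaged above that level, as did 14 of 14 skeletal muscle fibre markers and 13 of 14 nerve and Schwann cell markers, against 2 of 9 adrenal cortex and ovary markers. The skeletal muscle fibre score, the mean log2 deviation of its markers from their 14-animal means, spanned -1.04 to 3.50 in ExpPE, -1.84 to 3.84 in Pr and -1.94 to 1.57 in NPr. The nerve and Schwann cell score spanned -0.78 to 2.26 in ExpPE, -0.78 to 0.66 in Pr and -0.83 to 0.33 in NPr. ExpPE animals 1 and 2 held its highest values.

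Promoters of 3 members are shown because Esr1 had, of the members, the largest difference between pregnant and non-pregnant rats, and because Pgr and Oxtr are known target genes of oestrogen in the uterus whose values spread widely here. Each run is the 250 bases before the gene's start from RefSeq, build GRCr8, 5′ to 3′ on the gene's own strand, and 6 of the 9 members had an entry. Capitals mark a match to a pattern searched on both strands. The patterns were GGTCA, the core of an oestrogen response element, AGAACA, the core of a glucocorticoid response element, and TTCNNNGAA, the site of STAT factors. The full oestrogen response element, the palindrome of the first core around a spacer, was searched too and overlaps that core. Esr1 lies at chr1:43641845-43642094 (+), Pgr at chr8:14354148-14354397 (+) and Oxtr at chr4:147170500-147170749 (-).
Esr1: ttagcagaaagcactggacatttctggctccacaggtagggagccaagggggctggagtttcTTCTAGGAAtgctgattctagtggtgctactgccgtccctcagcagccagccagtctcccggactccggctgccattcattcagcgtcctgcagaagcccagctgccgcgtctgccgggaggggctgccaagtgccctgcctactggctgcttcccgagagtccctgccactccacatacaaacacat
Pgr: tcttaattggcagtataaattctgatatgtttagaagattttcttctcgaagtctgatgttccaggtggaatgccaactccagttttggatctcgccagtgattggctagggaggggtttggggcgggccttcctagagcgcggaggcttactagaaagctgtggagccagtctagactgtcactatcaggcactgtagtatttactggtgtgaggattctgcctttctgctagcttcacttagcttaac
Oxtr: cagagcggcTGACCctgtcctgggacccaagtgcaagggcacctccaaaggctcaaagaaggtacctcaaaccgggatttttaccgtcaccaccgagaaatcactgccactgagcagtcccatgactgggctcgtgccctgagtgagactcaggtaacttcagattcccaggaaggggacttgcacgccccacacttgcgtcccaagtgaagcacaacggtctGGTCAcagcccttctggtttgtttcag
The Esr1 window held 1 STAT pattern, with its first base 188 bases before the start. The Oxtr window held the GGTCA core at 241 bases (as TGACC, on the other strand) and at 27 bases before the start. The Pgr window held none of these letters. Among 33469 promoter windows of the same length, 35.4% held GGTCA, 17.5% AGAACA, 7.67% TTCNNNGAA and 0.0239% the full element, so that a match is a description of the window and not a site.

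Of the 9 members, 8 were above the background level in all 14 animals and Esr2 in none of them. No member differed at an adjusted p under 0.05 in any of the 4 comparisons (limma, Benjamini-Hochberg over 19357 genes), and the groups overlapped for every member in each of them. Over all genes that threshold was passed by 0.0982% in ExpPE vs NPr, 0.212% in Pr vs NPr, 0.0% in ExpPE vs Pr (0 genes, with 1642 at an unadjusted p under 0.05) and 0.176% in all pregnant rats (the mean of ExpPE and Pr) vs NPr. Non-overlapping groups were found for 2.07%, 2.71%, 1.13% and 0.563% of all genes in the same order. The study itself called genes with a fold change over 1.4 whose unadjusted p was below 0.05. By that rule Esr1 alone of the members was called. It was higher in ExpPE than NPr, where 3.13% of all genes were called and 1.98% as higher. It was higher in Pr than NPr, where 3.41% were called and 2.43% as higher, and higher in all pregnant rats than NPr, where 2.59% were called and 1.67% as higher. No member was called in ExpPE vs Pr, where 2.72% of all genes were, 1.72% as higher. The median log2 difference over the 9 members was -0.11 in ExpPE vs NPr, 0.0059 in Pr vs NPr, -0.027 in ExpPE vs Pr and -0.061 in all pregnant rats vs NPr, against 0.018, -0.018, 0.021 and 0.0026 over all genes.

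**Figure D1:**
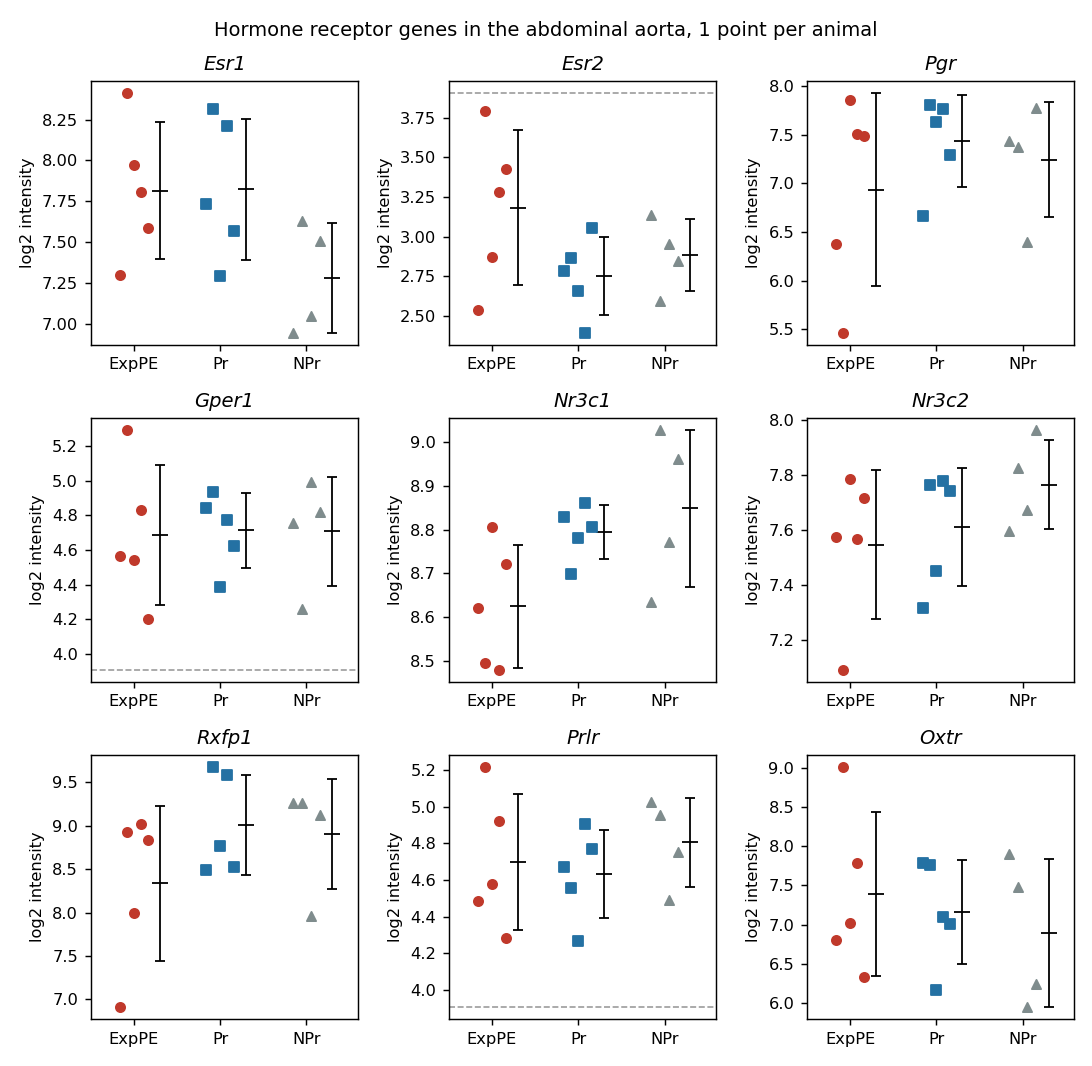
Log2 intensity of the 9 receptor genes in each animal (vertical axis, a separate scale per gene) in ExpPE (n = 5), Pr (n = 5) and NPr (n = 4); the line and bars beside the points are the mean and SD, and the dashed line is the background level of 3.91. Esr2 lies under the background level in every animal, and the 3 groups overlap for all 9 genes.

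Esr1 had log2 intensities of 7.30, 8.41, 7.97, 7.81 and 7.58 in the ExpPE rats and of 7.73, 8.31, 7.29, 8.21 and 7.56 in the Pr rats, against 6.95, 7.63, 7.05 and 7.51 in the NPr rats. Of the 10 pregnant rats 6 lay above every NPr rat, and none lay below the lowest. The means were 7.82 ± 0.40 in all pregnant rats (SD, n = 10) and 7.28 ± 0.34 in NPr rats (n = 4), a log2 difference of 0.54 (SE 0.22, 95% confidence interval 0.07 to 1.00) or 1.45-fold. The difference did not pass correction over all genes (limma, unadjusted p = 0.0265, adjusted p = 0.801), and the two-sided exact permutation test gave p = 0.04, where the smallest possible is 0.001. The difference was 0.53 (SE 0.25) in ExpPE vs NPr and 0.54 (SE 0.25) in Pr vs NPr, which share the NPr rats. In order of level ExpPE (7.82 ± 0.42) and Pr (7.82 ± 0.43) stood side by side ahead of NPr (7.28 ± 0.34), and ExpPE minus Pr was -0.0073 with an interval from -0.50 to 0.49. Leaving out single animals left the difference between all pregnant rats and NPr between 0.42 and 0.65, with unadjusted p between 0.0118 and 0.102 (limma). The call by the study's rule was lost without NPr animal 1 (0.42) or NPr animal 3 (0.46), the lowest NPr values, and without ExpPE animal 2 (0.46) or Pr animal 2 (0.48), the highest pregnant ones. In ExpPE vs NPr the call held in 13 of 27 other settings. It was lost without NPr animal 1 or 3, ExpPE animal 2, 3 or 4, or Pr animal 1 or 5. Among other settings, it was lost with no trend in the prior variance (limma, unadjusted p = 0.0501, adjusted p = 0.640) and with array quality weights (0.32, limma, unadjusted p = 0.206, adjusted p = 0.498). In Pr vs NPr it held in 16 of 27 and was lost without NPr animal 1 or 3, ExpPE animal 3 or 4, or Pr animal 1, 2 or 4, among others. The score of 10 macrophage markers was -0.60, 0.36, 0.20, -0.12 and -0.05 in the ExpPE rats and 0.38, 0.55, 0.98, 0.07 and -0.35 in the Pr rats, against -0.68, -0.28, -0.28 and -0.18 in the NPr rats. It was thus higher in 8 of the 10 pregnant rats than in every NPr rat. The lowest and the highest Esr1 value of the ExpPE rats went with their lowest and highest score, whereas the Pr rat with the highest score had the lowest Esr1 value of its group. The score of 8 fibroblast markers was lowest of their group in ExpPE animal 1 (-0.685) and NPr animal 1 (-0.353). These animals were also lowest of their group in Esr1, whereas Pr animal 3, lowest of the Pr rats in Esr1, had a fibroblast score of 0.274. The part of macrophages and fibroblasts in the Esr1 values was not tested.

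Esr2 was listed at 2.54, 3.80, 2.87, 3.28 and 3.43 in the ExpPE rats, at 2.78, 2.86, 2.66, 2.39 and 3.06 in the Pr rats and at 3.14, 2.59, 2.95 and 2.85 in the NPr rats. All of these are at the level of genes for sensory receptors, and the highest, in ExpPE animal 2, is still under 3.91. ExpPE minus Pr was 0.43 (SE 0.20), with an unadjusted p of 0.0525 and an adjusted p of 0.575 (limma), and 0.28 without ExpPE animal 2. Leaving out single animals gave 0.28 to 0.59, and the study's rule was passed in 4 of 26 other settings. Across the 14 animals Esr2 followed the mean of the 1191 sensory receptor genes, which spanned 2.63 to 3.03 in ExpPE, 2.68 to 2.73 in Pr and 2.64 to 2.94 in NPr. Pearson's r was 0.841 (permutation p = 0.00033, adjusted p = 0.00297 over 27 relations) and Spearman's rho 0.824 (permutation p = 0.00058, adjusted p = 0.00985). Pearson's r was 0.71 without the 2 animals farthest from the median of that mean and 0.806 on values centred on their group means. Gper1, the membrane receptor that responds to oestrogen, was above the background level but low, with ranges of 4.20 to 5.29 in ExpPE, 4.39 to 4.94 in Pr and 4.26 to 4.99 in NPr. Its means were 4.69 ± 0.41 in ExpPE, 4.71 ± 0.22 in Pr and 4.71 ± 0.32 in NPr, and the interval of the difference between all pregnant rats and NPr ran from -0.40 to 0.39.

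Pgr, the progesterone receptor gene, had log2 intensities of 6.38, 5.47, 7.85, 7.50 and 7.48 in the ExpPE rats and of 6.67, 7.80, 7.63, 7.76 and 7.29 in the Pr rats, against 7.43, 7.38, 6.40 and 7.77 in the NPr rats. Each group held most of its animals between 7.29 and 7.85 and 1 or 2 animals well below, namely ExpPE animals 1 and 2, Pr animal 1 and NPr animal 3. The group means were 6.94 ± 0.99 in ExpPE (SD, n = 5), 7.43 ± 0.47 in Pr (n = 5) and 7.24 ± 0.59 in NPr (n = 4). ExpPE minus Pr was -0.49 (SE 0.41, interval -1.36 to 0.38, limma adjusted p = 0.646), without ExpPE animal 2 it was -0.13, and without ExpPE animals 1 and 2 it was 0.18. The pooled SD within groups was 0.73, higher than that of 96.3% of all genes, whose median was 0.26.

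The low Pgr values belonged to the animals with low smooth muscle scores. The score of the 10 smooth muscle markers (Myh11, Acta2, Tagln and others) was -0.45, -1.21, 0.42, 0.09 and 0.42 in the ExpPE rats, -0.40, 0.40, -0.01, 0.40 and 0.25 in the Pr rats and -0.25, 0.16, -0.43 and 0.61 in the NPr rats. ExpPE animal 2, Pr animal 1 and NPr animal 3 had the lowest score and the lowest Pgr value of their group. Over the 14 animals Pearson's r between Pgr and the score was 0.929 (permutation p = 2e-05, adjusted p = 0.00054 over 27 relations) and Spearman's rho 0.811 (permutation p = 0.00073, adjusted p = 0.00985). The coefficient r was 0.823 without the 2 animals farthest from the median score and 0.926 on values centred on their group means. In whole aorta, fewer cells of a type and less RNA per cell cannot be told apart. Pgr also ran against the skeletal muscle fibre score, with r = -0.771 (permutation p = 0.00228, adjusted p = 0.0128). This r was -0.764 without the 2 animals farthest from the median of that score and -0.77 on group-centred values. The rank correlation of -0.516 did not pass correction (permutation p = 0.0618, adjusted p = 0.23). ExpPE animals 1 and 2, Pr animal 1 and NPr animal 3, low in Pgr, had the highest skeletal muscle fibre scores of the 14 (3.50, 2.75, 3.84 and 1.57). The part of skeletal muscle in the Pgr values was not tested.

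Nr3c2, the mineralocorticoid receptor gene, went with the same score at a much smaller spread. Its values were 7.57, 7.09, 7.79, 7.57 and 7.72 in the ExpPE rats and 7.32, 7.77, 7.45, 7.78 and 7.74 in the Pr rats, against 7.60, 7.83, 7.67 and 7.96 in the NPr rats. The lowest values were those of ExpPE animal 2 and Pr animal 1, and 5 of the 10 pregnant rats lay below every NPr rat. The correlation with the smooth muscle score was r = 0.866 (permutation p = 0.0002, adjusted p = 0.0027) and rho = 0.785 (permutation p = 0.00143, adjusted p = 0.0129). Pearson's r was 0.751 without the 2 animals farthest from the median score and 0.93 on group-centred values. With the skeletal muscle fibre score it was r = -0.676 (permutation p = 0.00744, adjusted p = 0.0335) and rho = -0.727 (permutation p = 0.00448, adjusted p = 0.0302). All pregnant rats minus NPr was -0.19 (SE 0.13, interval -0.47 to 0.10, limma adjusted p = 0.927), or -0.12 without NPr animal 4. The gene of the whole table with the pattern most like Nr3c2 was Acta2, smooth muscle actin and itself one of the score's markers, with r = 0.973 over 14 animals. The 2 genes most like Pgr were Il1rl2 with r = 0.98 and Kcnk1 with r = 0.97.

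**Figure D2:**
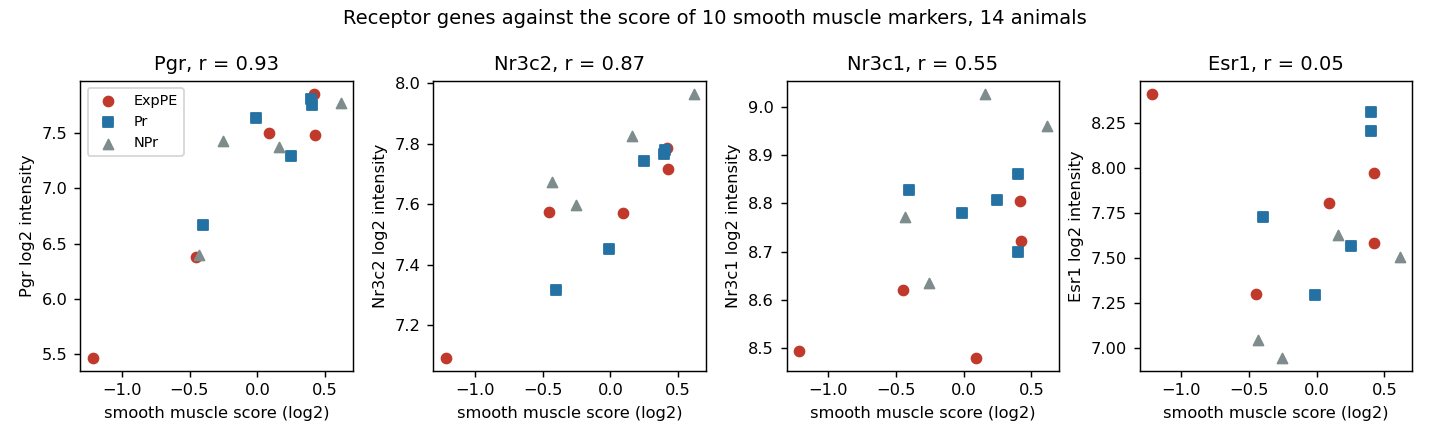
Log2 intensity of Pgr, Nr3c2, Nr3c1 and Esr1 (vertical axes) against the score of 10 smooth muscle markers (horizontal axes, mean log2 deviation from the 14-animal mean), 1 point per animal, in ExpPE, Pr and NPr. Pgr (r = 0.929) and Nr3c2 (r = 0.866) follow the score over the 14 animals, whereas Esr1 over all 14 does not (r = 0.047). For Esr1, r is 0.587 without the 2 animals farthest from the median score. Within groups it is -0.452 in ExpPE, 0.56 in Pr and 0.808 in NPr.

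Nr3c1, the glucocorticoid receptor gene, varied least of the members, with an SD within groups of 0.13 that was higher than that of 6.22% of all genes. Its log2 intensities were 8.62, 8.49, 8.81, 8.48 and 8.72 in the ExpPE rats, 8.83, 8.70, 8.78, 8.86 and 8.81 in the Pr rats and 8.64, 9.03, 8.77 and 8.96 in the NPr rats. Of the 5 ExpPE rats 3 lay below every Pr rat and 3 below every NPr rat. ExpPE averaged 8.62 ± 0.14 (SD, n = 5) and Pr 8.80 ± 0.06 (n = 5), a log2 difference of -0.17 (SE 0.10) with p = 0.0476 in the two-sided exact permutation test, which is 1 of 36 such tests here, and an adjusted p of 0.588 over all genes (limma). ExpPE minus NPr was -0.22 (SE 0.11, limma adjusted p = 0.640). Nr3c1 ran against the mean of the sensory receptor genes (r = -0.744, permutation p = 0.00237, adjusted p = 0.0128), but r was -0.423 without the 2 farthest from the median and the rank correlation of -0.495 did not pass (permutation p = 0.0756, adjusted p = 0.23).

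Among the peptide hormone receptors, Rxfp1 had log2 intensities of 6.91, 8.93, 8.0, 9.01 and 8.83 in the ExpPE rats and of 8.49, 9.67, 8.77, 9.59 and 8.52 in the Pr rats, against 9.26, 9.26, 7.96 and 9.12 in the NPr rats. ExpPE animals 1 and 3 and NPr animal 3 were lowest, and 2 Pr rats were above all others. ExpPE averaged 8.34 ± 0.89 (SD, n = 5) and Pr 9.01 ± 0.58 (n = 5), a log2 difference of -0.67 (SE 0.40, interval -1.53 to 0.19, limma adjusted p = 0.588). Without ExpPE animal 1, the lowest, it was -0.32 (SE 0.33). In each group the animal with the highest skeletal muscle fibre score (ExpPE 1 at 3.50, Pr 1 at 3.84, NPr 3 at 1.57) had the lowest Rxfp1 value. The same animals had the highest white and brown adipocyte score of their group (0.955 in ExpPE 1, 0.629 in Pr 1 and 0.993 in NPr 3), a score of 11 measured markers that all averaged above background. Between Rxfp1 and the skeletal muscle fibre score, Pearson's r was -0.648 over the 14 animals (permutation p = 0.0105, adjusted p = 0.0404). It was -0.485 without the 2 animals farthest from the median of that score. The rank correlation of -0.609 did not pass correction (permutation p = 0.0238, adjusted p = 0.129). The part of skeletal muscle and fat in the dissected tissue in these values was not tested.

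Oxtr, the oxytocin receptor gene, spread most within groups, with an SD of 0.89 above that of 98.1% of all genes. Its values were 6.81, 9.0, 7.02, 7.78 and 6.33 in the ExpPE rats, 7.78, 7.76, 6.16, 7.09 and 7.01 in the Pr rats and 7.90, 7.48, 5.96 and 6.24 in the NPr rats, so that each group spanned at least 1.61 on the log2 scale. ExpPE minus NPr was 0.49 with an interval from -0.63 to 1.62. It was 0.089 without ExpPE animal 2, the highest of the 14, and 0.76 without ExpPE animal 5, or 0.83, 0.18 and 0.27 without NPr animals 1, 3 and 4. ExpPE minus Pr was 0.23, or -0.18 without ExpPE animal 2 and -0.023 without Pr animal 3, and leaving out other single animals gave up to 0.49. Prlr spanned 4.29 to 5.21 in ExpPE, 4.27 to 4.90 in Pr and 4.49 to 5.03 in NPr, not far above the background level of 3.91. All pregnant rats minus NPr was -0.14 for Prlr (SE 0.17, interval -0.51 to 0.23), and between -0.25 and -0.066 when single animals were left out. Of the 28 pairs among the 8 members above background, Prlr and Oxtr had the highest correlation, with r = 0.763 (permutation p = 0.00153, adjusted p = 0.0428) and rho = 0.763 (permutation p = 0.00209, adjusted p = 0.0585). Pearson's r was 0.583 without the 2 animals farthest from the median. Within groups it was 0.989 in ExpPE, 0.467 in Pr and 0.941 in NPr. With the mean of the sensory receptor genes, r was 0.548 for Prlr (permutation p = 0.0439, adjusted p = 0.118). For Oxtr it was 0.589 (permutation p = 0.0282, adjusted p = 0.0951). The part of that mean in the correlation of Prlr and Oxtr was not tested. The 2 genes most like Prlr over the 14 animals were Olr526 (r = 0.892) and Vom2r23 (r = 0.875), an olfactory and a vomeronasal receptor gene.

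**Figure D3:**
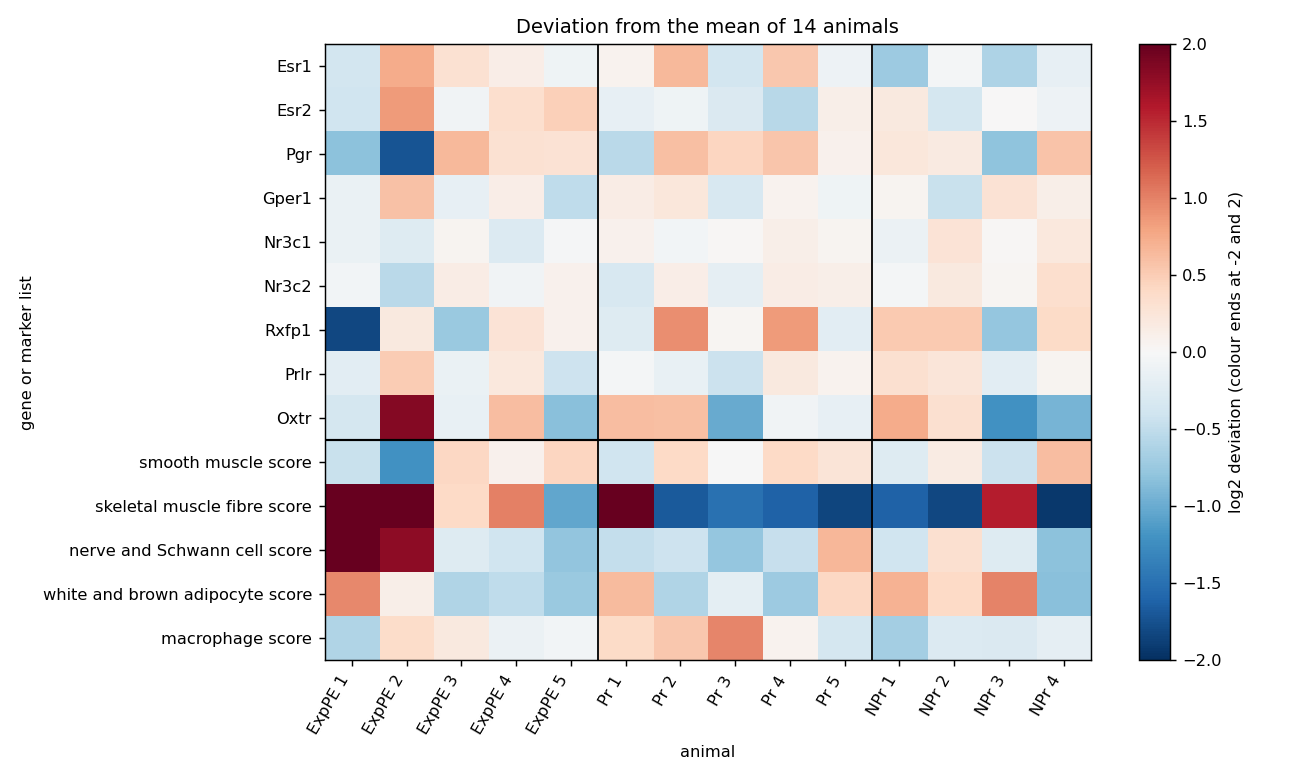
Deviation of each receptor gene (upper rows, log2) and of 5 marker scores (lower rows) from the mean of the 14 animals, with red above and blue below it, for ExpPE, Pr and NPr animals in columns. ExpPE 2 combines the lowest Pgr and Nr3c2 with the highest Esr1, Esr2, Gper1, Prlr and Oxtr, and ExpPE 1 has the lowest Rxfp1. The mean of the sensory receptor genes was also highest in ExpPE 2 (3.03 log2 intensity), and its part in these values was not tested.

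The plot of differences gives the intervals side by side. The interval left out 0 for Esr1 in ExpPE vs NPr (0.0064 to 1.06), in Pr vs NPr (0.01 to 1.07) and in all pregnant rats vs NPr (0.07 to 1.00), and in the other 33 of 36 it held 0. For Oxtr, Pgr and Rxfp1 the intervals were wide, from -0.83 to 1.29, -1.36 to 0.38 and -1.53 to 0.19 in ExpPE vs Pr, and each held changes of over 2-fold. For Nr3c1 the interval in ExpPE vs Pr ran from -0.39 to 0.05.

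**Figure D4:**
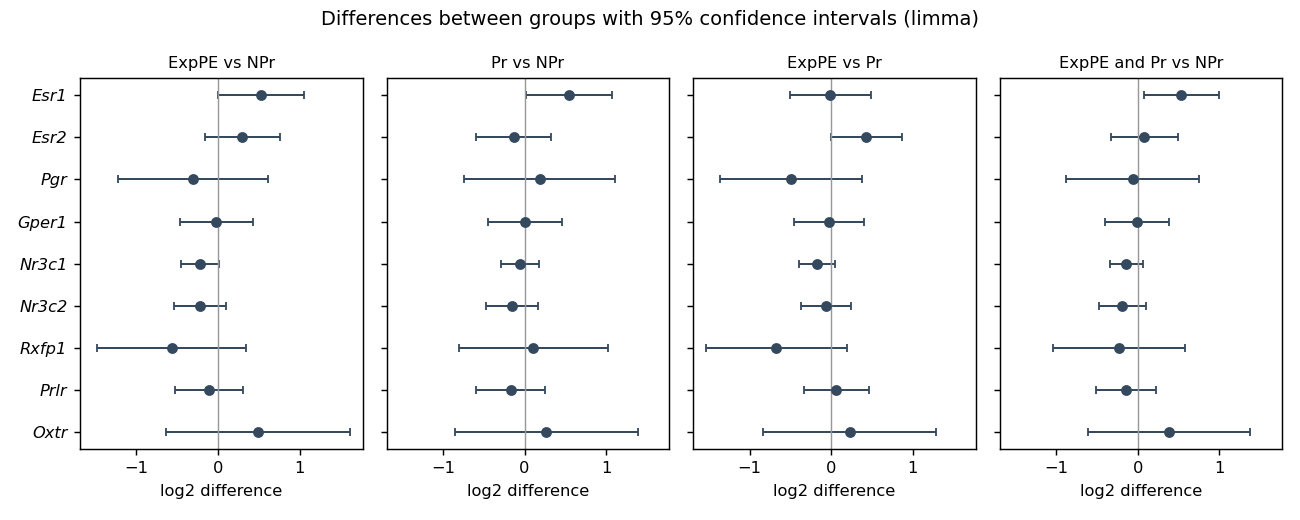
Log2 difference (horizontal axes, first minus second group) with its 95% confidence interval from limma for the 9 receptor genes (rows) in ExpPE vs NPr, Pr vs NPr, ExpPE vs Pr and all pregnant rats vs NPr. Esr1 is near 0.53 in all 3 comparisons with NPr and at -0.0073 between ExpPE and Pr.

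Around the receptors, 190 other genes of 11 lists (further nuclear receptors, membrane progesterone receptors, chaperones and coregulators, steroid enzymes, genes that respond to glucocorticoids, mineralocorticoids or oestrogen and progesterone, relaxin, prolactin and oxytocin systems, other reproductive hormone receptors) were read in the same fit. None passed an adjusted p of 0.05 in any comparison. At an unadjusted p under 0.05, 7 were higher and 6 lower in ExpPE vs NPr (6.84% of them, against 7.61% of all genes), 15 higher and 5 lower in Pr vs NPr (10.5% against 5.35%). There were 13 higher and 4 lower in ExpPE vs Pr (8.95% against 8.48%), and 11 higher and 4 lower in all pregnant rats vs NPr (7.89% against 5.54%). In Pr vs NPr, the 25 measured glucocorticoid responsive genes gave 5 higher and 0 lower, with a median log2 difference of 0.09. The 28 of the prolactin and growth hormone list gave 6 higher and 0 lower, with a median of 0.04. The 23 of the oestrogen and progesterone list gave 2 higher and 2 lower. Each of the other lists gave at most 1 higher and at most 2 lower. In ExpPE vs Pr the prolactin and growth hormone list gave 1 higher and 3 lower, and the glucocorticoid list 0 higher and 0 lower.

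Igf1, a growth factor that growth hormone and oestrogen are known to induce, had the smallest p of these genes. It stood at 10.71, 11.30, 10.77, 10.82 and 10.31 in the ExpPE rats, 11.36, 11.61, 11.10, 11.48 and 10.81 in the Pr rats and 10.29, 10.71, 10.44 and 10.16 in the NPr rats. Every Pr rat was above every NPr rat, and in that comparison the groups did not overlap for 2.71% of all genes. As Igf1 was chosen by its small p, the separation adds no support. Pr minus NPr was 0.88 (SE 0.21, limma unadjusted p = 0.00078, adjusted p = 0.180), and ExpPE minus Pr was -0.49 (SE 0.20, adjusted p = 0.575). Greb1, an oestrogen-induced gene in breast cells, was at 5.89, 6.60, 6.01, 6.76 and 5.82 in the ExpPE rats, 5.84, 7.31, 6.71, 7.17 and 6.42 in the Pr rats and 6.19, 5.78, 4.75 and 5.40 in the NPr rats. Pr minus NPr was 1.16 (SE 0.33, adjusted p = 0.329), and the groups overlapped through Pr animal 1 and NPr animal 1. Hif3a, Gadd45b and Cebpd of the glucocorticoid list averaged 1.02, 0.82 and 0.50 higher on the log2 scale in Pr than NPr, each short of the adjusted threshold. The Cebpd difference was 0.32 without Pr animal 3. Tgfa, a growth factor of the oestrogen list, averaged 5.94 ± 0.42 in ExpPE and 5.86 ± 0.36 in Pr, against 6.55 ± 0.38 in NPr, and did not pass either. The leptin receptor gene Lepr averaged 6.84 ± 0.45 in ExpPE and 7.73 ± 0.43 in Pr, a difference of -0.89 (SE 0.33, adjusted p = 0.575).

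Markers of macrophages were read beside these differences. Of 10 macrophage markers 6 were higher in Pr than NPr at an unadjusted p under 0.05, with a median log2 difference of 0.66, and all 10 averaged above background. Their score lay between -0.60 and 0.36 in ExpPE and between -0.35 and 0.98 in Pr, against -0.68 to -0.18 in NPr. Ptpn6, a phosphatase of blood cells on the prolactin list, was 0.60 higher in Pr than NPr (SE 0.19, adjusted p = 0.478). It was 0.40 higher without Pr animal 3, which had the highest macrophage score. Every Pr rat was above every NPr rat for Ptpn6, which was also chosen by small p, and groups did not overlap for 2.71% of all genes. The part of macrophages in the values of Igf1 and Ptpn6 was not tested.

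The remaining genes singled out by small unadjusted p, up to 3 a list, all had an adjusted p above 0.05 (limma). Among nuclear receptors, Vdr, the vitamin D receptor gene, averaged 5.84 ± 0.36 in ExpPE and 5.49 ± 0.14 in Pr, against 5.45 ± 0.11 in NPr. Esrrg averaged 6.43 ± 0.70 in ExpPE and 5.86 ± 0.39 in Pr, against 6.48 ± 0.66 in NPr, and Nr0b2 was above background in 4 of 14 animals. Of the membrane progesterone receptors, Paqr9 was 0.65 higher in ExpPE than Pr (SE 0.29) and Paqr7 0.38 higher (SE 0.23; 0.21 without ExpPE animal 1 and 0.58 without ExpPE animal 5), while Paqr8 was 0.24 higher in all pregnant rats than NPr (SE 0.11). Nrip1, a corepressor of nuclear receptors, was 0.42 higher in Pr than NPr (SE 0.15). The chaperone gene Dnaja1 was -0.56 in ExpPE vs NPr (SE 0.23), and Foxa1 lay under the background level in every animal. Of the steroid enzymes, Srd5a1, a steroid 5-alpha reductase gene, averaged 5.29 ± 0.28 in ExpPE and 4.80 ± 0.19 in Pr, against 5.24 ± 0.42 in NPr, whereas Cyp11b2 and Hsd17b3 lay under the background level in every animal. Of the mineralocorticoid list, Atp1b1, a sodium pump subunit gene, was 0.75 higher in ExpPE than Pr (SE 0.30), or 0.44 without ExpPE animal 1. That animal was at 9.24 and the other ExpPE rats between 7.47 and 7.81, and it had the highest chromaffin and sympathetic cell score (3.00, with 6 of 10 measured markers above background) and nerve and Schwann cell score (2.26) of the 14, whose part in the value was not tested. Usp2 was 0.41 higher in Pr than NPr (SE 0.16), and Scnn1g lay under the background level in every animal. In the relaxin family, Rxfp2 was above background in 12 of 14 animals and 0.41 higher in Pr than NPr (SE 0.20). Insl3 was 0.35 higher in ExpPE than Pr (SE 0.20), or 0.53 without ExpPE animal 3. Grb2, an adaptor of receptor signalling on the prolactin list, averaged 8.49 ± 0.13 in ExpPE and 8.21 ± 0.09 in Pr, against 8.15 ± 0.19 in NPr. Of the vasopressin receptors, Avpr1a was 0.69 higher in Pr than NPr (SE 0.32; 0.43 without NPr animal 3), and Avpr2 was above background in 7 of 14 animals. Gnaq, the G protein subunit gene through which Oxtr signals, was -0.22 in ExpPE vs NPr (SE 0.11). Kiss1 was 0.38 higher in ExpPE than Pr (SE 0.16), and Fshr lay under the background level in every animal.

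**Figure D5:**
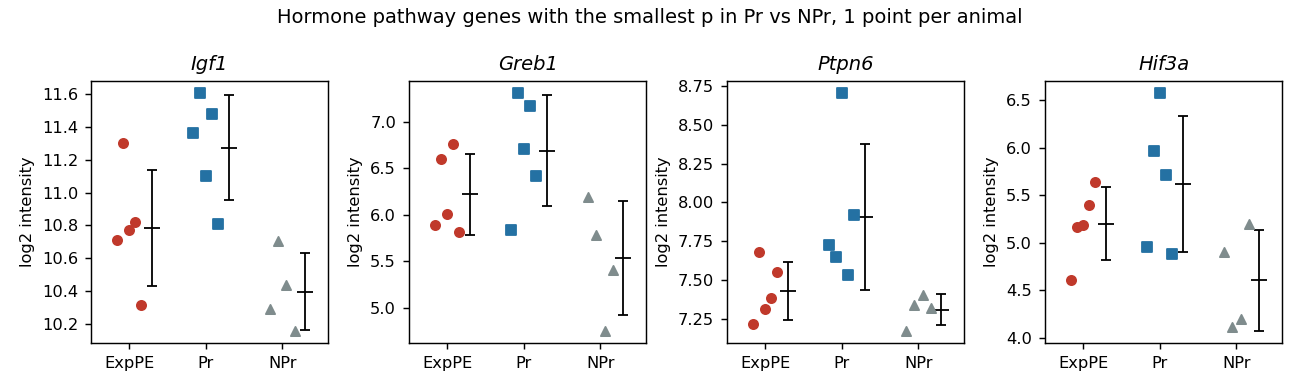
Log2 intensity (vertical axes) of Igf1, Greb1, Ptpn6 and Hif3a, the 4 hormone pathway genes above background with the smallest p in Pr vs NPr, in each ExpPE, Pr and NPr animal; lines and bars are the mean and SD. Every Pr animal is above every NPr animal for Igf1 and Ptpn6, and the groups overlap for Greb1 and Hif3a. The 4 genes were chosen by p in this comparison, in which the groups do not overlap for 2.71% of all genes.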

How the data were processed

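RNA of each animal was hybridised to an Affymetrix Rat Gene 1.1 ST array. The authors made the deposited intensities with the robust multichip average in the MADMAX pipeline, with quantile normalisation and probes reassigned to 1 set per gene; they are on a linear scale, and their versions and genome build were not given in the sources used here. Quantile normalisation gives arrays a common distribution, so a shift of all genes cannot be seen. The deposited fold changes and p-values of the authors' own comparisons were not used. Intensities were turned into log2 and fitted in limma 3.58.1 (R 4.3.3) with 1 mean per group over all 14 arrays, a trend in the prior variance and Benjamini-Hochberg adjustment over 19357 genes, after a test on simulated data. The methods name a paired statistic but no pairing, so the fit had no block. Exact permutation tests over animals and 100000-resample permutation tests of correlations were run with scipy 1.17.1. Correlations were adjusted over their family (27 relations with scores and background, 28 pairs of members). The number of arrays limits the precision. The members and lists were chosen with earlier results of these data known. All members were named. Of each list the genes past the adjusted threshold, or otherwise the up to 3 with the smallest unadjusted p, were named (32 genes); for each member above background, the 2 genes with the highest r over the animals were listed, and those of 3 members are given, except 1 gene that is not reported here. Array names hold a letter and a number of unstated meaning: letters D and E held Pr arrays, letter C ExpPE, letter A NPr, and letter B both ExpPE and NPr. Letter and group can thus hardly be told apart. Within letter B, ExpPE animals 1 and 2 minus NPr animal 4 gave 0.35 for Esr1 and -1.85 for Pgr. That contrast rests on 1 NPr animal. ExpPE animals 1 and 2 had the lowest smooth muscle scores of the 14 (-0.45 and -1.21) and NPr animal 4 the highest (0.615). The part of the score in these differences was not tested.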

Additional observations from a re-analysis of the deposited data

Results flagged for a closer look

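Rxfp1 in NPr animal 3 stood apart from its group: its log2 intensity of 7.96 lay below 9.12, the nearest of the other NPr rats, by a gap of 0.893 of the group's range, above the limit of 0.829 for 4 samples. It was 1 of 27 groups of values examined (9 genes in 3 groups), and chance marks about 1 in 20 such groups. Without this animal Pr minus NPr for Rxfp1 was -0.21 in place of 0.11. The same animal had the highest skeletal muscle fibre score (1.57) and the lowest smooth muscle score (-0.43) of the NPr rats, the highest white and brown adipocyte score of the 14 animals (0.993) and the highest endothelial score of the NPr rats (0.40); their part in the Rxfp1 value was not tested.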

How the results depend on the processing

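The 36 member results (9 genes in 4 comparisons) were recomputed under 27 other settings. None passed an adjusted p of 0.05 in any of the 942 values; 852 had the same sign as reported, and 90 the other, which came from 24 results, all short of the threshold. Esr1 stayed higher in ExpPE, in Pr and in all pregnant rats than in NPr throughout, at 0.32 to 0.66, 0.42 to 0.67 and 0.40 to 0.65, passing the study's rule in 13 of 27, 16 of 27 and 19 of 25 settings. Esr2, under background, passed it in 4 of 26 settings in ExpPE vs Pr. Settings that leave out several animals, or use the number in the array name, were chosen after seeing the data. The main counts were 19, 41, 0 and 34 genes at adjusted p under 0.05 and 605, 660, 527 and 501 at the study's threshold in ExpPE vs NPr, Pr vs NPr, ExpPE vs Pr and pregnant vs NPr. With groups from the titles of the other deposited table, the log2 difference took the other sign, at -0.13 for Esr2, 0.19 for Pgr, 0.0059 for Gper1, 0.11 for Rxfp1 in ExpPE vs NPr, and 0.30 for Esr2, -0.31 for Pgr, -0.021 for Gper1, -0.56 for Rxfp1 in Pr vs NPr, and 0.0073 for Esr1, -0.43 for Esr2, 0.49 for Pgr, 0.027 for Gper1, 0.17 for Nr3c1, 0.064 for Nr3c2, 0.67 for Rxfp1, -0.064 for Prlr, -0.23 for Oxtr in ExpPE vs Pr, and the count was 41 genes at adjusted p under 0.05 in ExpPE vs NPr, 19 genes at adjusted p under 0.05 in Pr vs NPr. Without ExpPE animals 1 and 2, Pr animal 1 and NPr animal 3, the log2 difference took the other sign, at 0.086 for Pgr, -0.17 for Oxtr in ExpPE vs NPr, and -0.076 for Rxfp1, -0.20 for Oxtr in Pr vs NPr, and 0.0055 for Nr3c2, -0.029 for Prlr in ExpPE vs Pr, and 0.091 for Pgr, -0.18 for Oxtr in pregnant vs NPr, and the count was 11 genes at adjusted p under 0.05 in ExpPE vs NPr, 23 genes at adjusted p under 0.05 in Pr vs NPr, 22 genes at adjusted p under 0.05 in pregnant vs NPr. With array quality weights, the log2 difference took the other sign, at 0.0084 for Pgr, 0.027 for Gper1 in ExpPE vs NPr, and -0.054 for Prlr, -0.10 for Oxtr in ExpPE vs Pr, and 0.16 for Pgr, 0.12 for Gper1 in pregnant vs NPr, and the count was 1052 genes at the study's threshold in ExpPE vs NPr, 211 genes at adjusted p under 0.05 in Pr vs NPr, 1022 genes at the study's threshold in Pr vs NPr, 147 genes at adjusted p under 0.05 in pregnant vs NPr, 901 genes at the study's threshold in pregnant vs NPr. Among genes above the median intensity, the count was 327 genes at the study's threshold in ExpPE vs NPr, 169 genes at the study's threshold in ExpPE vs Pr. With 16 added to each intensity, the count was 317 genes at the study's threshold in ExpPE vs NPr, 189 genes at the study's threshold in ExpPE vs Pr. Without ExpPE animals 1 and 2, the log2 difference took the other sign, at 0.37 for Pgr in ExpPE vs NPr, and 0.18 for Pgr, 0.079 for Nr3c2, -0.038 for Prlr, -0.12 for Oxtr in ExpPE vs Pr, and 0.28 for Pgr in pregnant vs NPr, and the count was 1050 genes at the study's threshold in ExpPE vs NPr, 818 genes at the study's threshold in pregnant vs NPr. With a replicate block, the log2 difference took the other sign, at 0.051 for Gper1 in ExpPE vs NPr, and 0.064 for Gper1 in pregnant vs NPr. With arrays centred on their median, the log2 difference took the other sign, at -0.018 for Gper1 in Pr vs NPr. With quantile normalisation once more, the log2 difference took the other sign, at 0.078 for Esr1, 0.0066 for Nr3c2, -0.049 for Prlr in ExpPE vs Pr. With the number in the array name as a block, the log2 difference took the other sign, at 0.028 for Esr1 in ExpPE vs Pr, and 0.0008 for Pgr, 0.0093 for Gper1 in pregnant vs NPr. Over all genes, same-numbered animals of different groups did not deviate together (correlation from -0.398 to 0.395 over 13 pairs). The replicate block changed no call of a member, but for Esr1 it lowered the SE and the unadjusted p. Esr1 was then 0.59 in ExpPE vs NPr (SE 0.16, limma unadjusted p = 0.0039, adjusted p = 0.577). It was 0.60 in Pr vs NPr (SE 0.16, limma unadjusted p = 0.0037, adjusted p = 0.279). In pregnant vs NPr it was 0.60 (SE 0.145, limma unadjusted p = 0.0017, adjusted p = 0.228). Leaving out 1 animal at a time gave -0.16 to 0.12 for Esr1 in ExpPE vs Pr, -0.013 to 0.17 for Esr2 in pregnant vs NPr, -0.17 to 0.10 for Gper1 in ExpPE vs NPr, -0.18 to 0.094 for Gper1 in ExpPE vs Pr, -0.14 to 0.10 for Gper1 in Pr vs NPr, -0.16 to 0.088 for Gper1 in pregnant vs NPr, -0.12 to 0.0062 for Nr3c1 in Pr vs NPr, -0.14 to 0.050 for Nr3c2 in ExpPE vs Pr, -0.18 to 0.49 for Oxtr in ExpPE vs Pr, -0.046 to 0.60 for Oxtr in Pr vs NPr, -0.59 to 0.059 for Pgr in ExpPE vs NPr, -0.10 to 0.38 for Pgr in Pr vs NPr, -0.34 to 0.12 for Pgr in pregnant vs NPr, -0.065 to 0.17 for Prlr in ExpPE vs Pr, -0.21 to 0.24 for Rxfp1 in Pr vs NPr; the counts ran over 8 to 22 genes at adjusted p under 0.05 in ExpPE vs NPr, 23 to 62 genes at adjusted p under 0.05 in Pr vs NPr, 21 to 56 genes at adjusted p under 0.05 in pregnant vs NPr, 361 to 1205 genes at the study's threshold in ExpPE vs NPr, 337 to 1103 genes at the study's threshold in ExpPE vs Pr, 415 to 804 genes at the study's threshold in pregnant vs NPr. The cause was not tested. Fewer genes in the filtered setting lower its counts by construction. Esr2 lay under the background level in all 14 animals, and Gper1 and Prlr lay above it in all of them.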
